A study of Mus musculus with 12 samples.

Results

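Muscle of FLExD/+ mice, which carry a conditional DUX4 transgene that has not been recombined, was compared with muscle of ACTA1-MCM/+ mice, which carry the Cre driver alone. These 6 of the 12 libraries of the series were chosen by their genotype labels, 3 mice in each group, and neither group received tamoxifen (TMX). The FLExD/+ mice are labelled FLExDUX4/+ and are hemizygous for the transgene. The ACTA1-MCM/+ mice are hemizygous for a transgene in which the human skeletal actin promoter drives MerCreMer, a Cre recombinase fused to ligand-binding domains of the mouse estrogen receptor. All mice were adults, and the tissue was gastrocnemius, a mixed hindlimb muscle. The moderate and severe models, 3 mice each, carry both transgenes and received TMX at 5 mg/kg in 1 injection or at 10 mg/kg in 2 injections. They serve here as a reference for this tissue with both transgenes and TMX. They also entered the main fit and its scaling, and the moderate model defined the readout genes used below. No single-transgenic mouse here received TMX, so effects of DUX4 and of TMX cannot be told apart in these models.

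DUX4 is a human transcription factor of the early embryo that is normally silent in muscle, and its expression there is tied to facioscapulohumeral muscular dystrophy (FSHD). In the FLExD allele the DUX4 gene sits in the Rosa26 locus in the orientation opposite to the Rosa26 promoter, and Cre recombination turns it to be transcribed from that promoter. MerCreMer is held mainly outside the nucleus until TMX binds its estrogen receptor domains, and such fusions can have some activity without TMX. The comparison of the single-transgenic groups therefore asks whether the unflipped allele leaves any trace of DUX4, and what else separates the groups in which neither arm of the system is complete. Limits of the design are that the Cre group lacks the Rosa26 allele and the FLExD group lacks Cre, so an effect of either transgene, of its insertion site or of the background of either line cannot be told apart.

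MerCreMer borrows sequence from mouse Esr1 and the FLExD allele lies in the Rosa26 locus, so a stretch of the reference sequence of each mouse gene is shown. Sequences of the transgenes and their exact insertion points were not used here, and the source of the reads of either gene was not tested. The first is the end of the Esr1 coding sequence, in the last of 9 exons of the transcript used here (GRCm38, chr10:5001304-5001423, plus strand), with the stop codon in capitals. It codes for the carboxyl end of the estrogen receptor. The second is the end of exon 1 of the noncoding Gt(ROSA)26Sor transcript (GRCm38, chr6:113077068-113077187, minus strand), with the last 3 bases of the exon in capitals. Alleles targeted to Rosa26 are commonly placed in the intron that follows this exon.
Esr1 end of coding sequence: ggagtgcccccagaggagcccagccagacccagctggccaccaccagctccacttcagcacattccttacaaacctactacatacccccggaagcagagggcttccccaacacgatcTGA
Gt(ROSA)26Sor end of exon 1: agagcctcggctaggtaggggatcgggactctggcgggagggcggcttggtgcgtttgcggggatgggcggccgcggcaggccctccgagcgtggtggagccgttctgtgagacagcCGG

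The 6 libraries held 27309934 to 29136403 counts, at which 3 counts correspond to 0.142 to 0.155 CPM, and transcripts of the mitochondrial genome took 25.3% to 36.6% of the counts. Levels are CPM, the counts scaled to a common total, on library sizes adjusted by TMM factors. Fast muscle genes dominated every library, as in the 51731 to 92481 CPM of Myh4, the fast myosin heavy chain of type IIB fibers. Xist, transcribed from the inactive X, was at 128 to 173 CPM and the Y-linked Ddx3y had 0 counts in all 6, so each library had the pattern of a female. Nothing in the labels says whether the mice were littermates, so p-values measure only the spread between animals within groups, which the main fit estimated from all 12 mice.

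Esr1, the gene for estrogen receptor alpha (chr10:4611593-5005614), was far lower in the FLExD/+ mice and was the only gene that passed the test. It stood at 715, 422 and 819 CPM in ACTA1-MCM/+ mice 1127, 1246 and 1349, and at 29.7, 27.5 and 37.9 CPM in FLExD/+ mice 1358, 1367 and 1378. Every ACTA1-MCM/+ mouse was above every FLExD/+ mouse. The log2 fold change was -4.36 (SE 0.23), a level 20.6-fold higher in ACTA1-MCM/+ muscle, with an adjusted p of 1.19e-06 by edgeR's quasi-likelihood test with Benjamini-Hochberg adjustment. A fit of these 6 mice alone gave an adjusted p of 0.0504. The mice that carry both transgenes were at 95.9 to 124 CPM (moderate model) and 35.2 to 37.4 CPM (severe model). Acta1, the mouse gene for skeletal actin, was itself at 18119 to 21843 CPM in ACTA1-MCM/+ and 16858 to 19109 CPM in FLExD/+ mice, while the moderate model averaged 6339 CPM and the severe model 1842 CPM.

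The Esr1 reads were also assigned to transcripts of a different length. The ratio of a gene's counts to its TPM, scaled on 168 genes with 1 annotated transcript, gives the transcript length that the quantification assigned. For Esr1 this implied length was 1665, 1699 and 1667 nucleotides in the ACTA1-MCM/+ mice and 5220, 5706 and 5102 nucleotides in the FLExD/+ mice. The Esr1 transcripts of GENCODE M21 run from 719 to 6339 nucleotides, and the authors quantified on a different, merged annotation. In the mice with both transgenes it was 1836 to 1918 nucleotides in the moderate and 2061 to 2180 in the severe model, both nearer to the ACTA1-MCM/+ mice. One free-text label calls the FLExD/+ samples mild pathology. The implied length of Esr1 set those 3 libraries apart from the 9 libraries with MerCreMer in the genotype label. Its level in CPM overlapped that of the severe model. CPM rests here on TMM factors of 0.706 to 0.760 in the single-transgenic mice and 1.69 to 1.87 in the severe model. In TPM, which divides by the assigned length, Esr1 was at 4.87 to 8.78 in FLExD/+ mice and 38.6 to 45.1 in the severe model, without overlap.

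**Figure D1:**
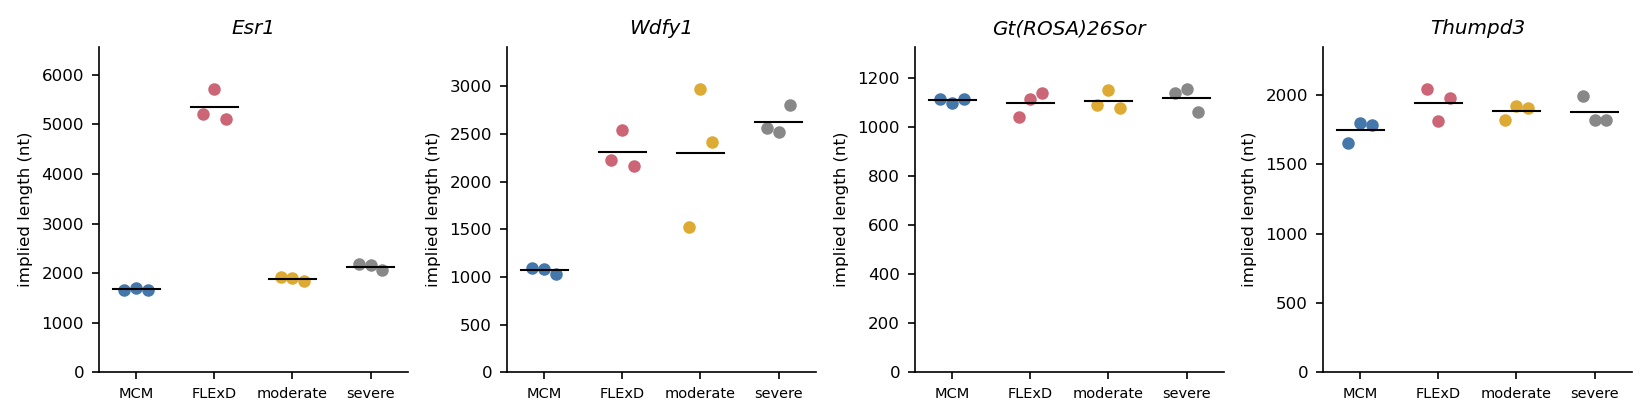
Transcript length in nucleotides implied by the ratio of counts to TPM, for 4 genes in each of the 12 mice, with points for mice and bars for group means. For Esr1 the 3 FLExD mice lie at 5102 to 5706 nucleotides and the other mice at 1665 to 2180, and for Wdfy1 the MCM mice lie at 1027 to 1093.

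Of 10689 genes with a mean of at least 50 counts in both groups, 2 had implied lengths that differed at least 2-fold with no overlap between the groups. They were Esr1 and Wdfy1, which codes for a protein with WD repeats and a FYVE domain that binds endosomal membranes. Wdfy1 averaged 1068 nucleotides in ACTA1-MCM/+ and 2311 in FLExD/+ mice. Its level was 12.1, 10.1 and 11.5 CPM against 20.4, 19.8 and 22.5 CPM, with no overlap, and the log2 fold change was 0.90 (SE 0.19, adjusted p = 1 by edgeR). On the TPM scale, which divides by the assigned length, the order was lost, with 11.8, 10.0 and 13.0 TPM against 9.29, 7.97 and 12.4 TPM. Wdfy1 also varied within the moderate model, where mouse 1236 was at 11.7 CPM and 1528 nucleotides and the others were at 20.2 and 23.1 CPM and at 2965 and 2419 nucleotides.

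Gt(ROSA)26Sor, the noncoding gene at the locus that holds the transgene (chr6:113067428-113077333, minus strand), had the smallest p after Esr1. It was at 4.56, 3.95 and 4.50 CPM in the ACTA1-MCM/+ mice and at 6.79, 7.54 and 9.69 CPM in the FLExD/+ mice. The groups did not overlap, and the FLExD/+ mean was 1.85-fold that of ACTA1-MCM/+ (log2 fold change 0.88, 95% interval 0.56 to 1.21). The adjusted p was 0.39 by edgeR and did not pass, and it was 0.00913 by DESeq2. The moderate model was at 5.41 to 6.78 CPM and the severe model at 4.58 to 5.02 CPM. The place of these models depended on the scale. In TPM, the ACTA1-MCM/+ mice were at 3.88 to 4.64 and the FLExD/+ mice at 6.78 to 10.42. The moderate model was at 7.83 to 9.51 TPM and the severe model at 10.56 to 10.83 TPM. The implied length was 1040 to 1139 nucleotides in all 6 single-transgenic mice.

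The genes beside the locus were given in the same fit. Thumpd3, a putative RNA methyltransferase gene whose 3′ end overlaps Gt(ROSA)26Sor on the opposite strand, was at 12.2, 13.0 and 10.3 CPM against 13.2, 15.6 and 15.3 CPM (log2 fold change 0.31, unadjusted p 0.00879). Counting by strand is not stated in the sources used here, so reads of the overlap cannot be told apart. Setd5, a chromatin regulator transcribed away from the same promoter region, had a log2 fold change of -0.09 and overlapping groups. Among the 74 other tested genes within 5 Mb of the Gt(ROSA)26Sor start, 5 had an unadjusted p under 0.05 (6.76%, against 3.83% of all tested genes) and 12 had groups that did not overlap (16.2%, against 8.6%). Their median log2 fold change was 0.05, with 5 of the 12 higher and 7 lower in FLExD/+ mice. Of the 12 other tested genes within 1 Mb of the Esr1 start, none had an unadjusted p under 0.05 and none had groups that did not overlap, and none of them passed edgeR's adjusted test.

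**Figure D2:**
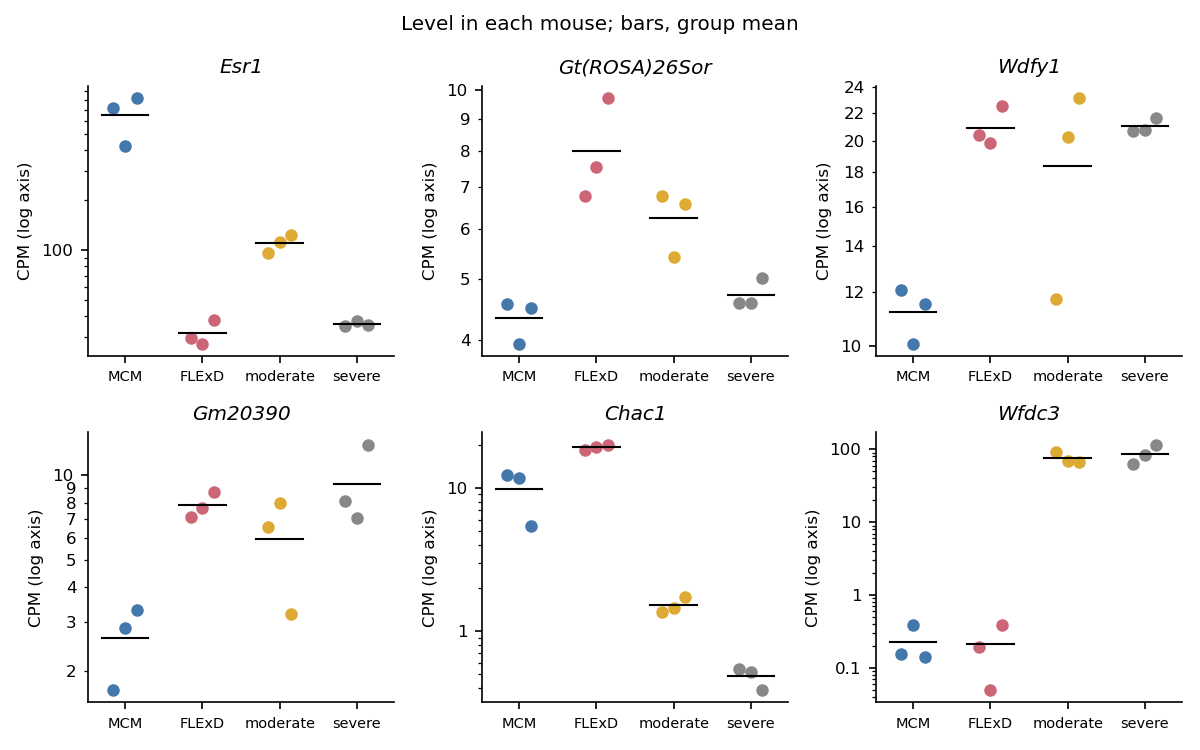
CPM on log axes for 6 genes in each of the 12 mice, with points for mice and bars for group means. Esr1 separates the MCM mice (422 to 819) from all others, and Wfdc3 is below 0.4 in the 6 single-transgenic mice and above 60 in the DUX4 models.

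Across the transcriptome the groups were close. Of 16679 genes tested, 1 was called lower (0.006%) and none higher (0%), where a call needed a log2 difference of 0.5 or more and an adjusted p below 0.05. Without adjustment, 268 genes (1.61%) had a p under 0.05 and were higher in FLExD/+ mice and 370 (2.22%) were lower. Groups did not overlap for 668 genes higher (4.01%) and 766 lower (4.59%) in FLExD/+ mice. Of the 6964 genes at a mean of 10 CPM or more, 99.1% had an absolute log2 fold change under 0.5, and 97.6% had a 95% interval that lay within -1 to 1. Over all tested genes for which an interval could be computed, that interval lay within -1 to 1 for 75.8%. For the rest of those genes, Esr1 among them, the interval reached or passed a 2-fold difference.

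**Figure D3:**
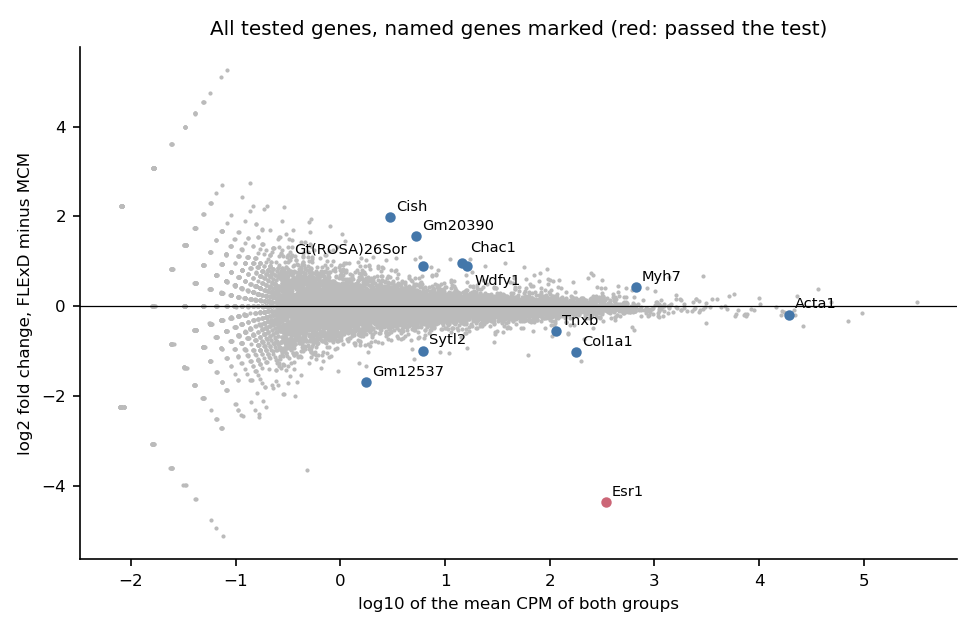
Log2 fold change of FLExD against MCM for tested genes with a count in the 6 mice, plotted against the log10 mean CPM of both groups, with each point a gene. Esr1, in red, is the gene that passed the test, at a log2 fold change of -4.36, and at 10 CPM or more nearly all genes lie within 0.5 of 0.

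Genes that were higher in the DUX4 models were used to look for leak from the unflipped transgene. The human DUX4 transcript was not analysed here, since the tables list mouse genes. Wfdc3, a protease inhibitor-like gene that mouse cells switch on under DUX4, had 3, 8 and 3 counts in the ACTA1-MCM/+ mice and 4, 1 and 8 counts in the FLExD/+ mice. These are 0.155, 0.385 and 0.142 CPM against 0.197, 0.0496 and 0.386 CPM, values at or near the floor of 3 counts, and the groups overlapped. The moderate model was at 68.0 to 91.8 CPM and the severe model at 62.6 to 116 CPM. The log2 fold change of -0.11 between the single-transgenic groups had a 95% interval of -2.01 to 1.79, and its sign depended on which mouse was left out. Trim36, a ubiquitin ligase gene named with it, was at 0.673, 0.867 and 0.616 CPM against 0.836, 0.744 and 1.01 CPM. Its log2 fold change was 0.26 (SE 0.29), with a 95% interval of -0.36 to 0.88. Trim36 is a weaker readout than Wfdc3, at only 1.36 to 1.73 CPM in the moderate model and 1.93 to 2.95 CPM in the severe model. The mouse DUX family gene Duxbl1, which was at means of 5.86 and 6.79 CPM in the moderate and severe models, stayed at 0.0474 to 0.207 CPM in all 6 single-transgenic mice.

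A wider readout was taken as the 315 genes that were at least 4 log2 units higher in the moderate model than in the average of both single-transgenic groups, a choice that treats FLExD/+ and ACTA1-MCM/+ mice alike. Their summed level was 107, 114 and 110 CPM in the ACTA1-MCM/+ mice and 113, 132 and 121 CPM in the FLExD/+ mice, so FLExD/+ mouse 1358 lay within the ACTA1-MCM/+ range. In the moderate model the sum was 2992 to 3969 CPM. The FLExD/+ mean was 122 ± 9.55 CPM and the ACTA1-MCM/+ mean 110 ± 3.43 CPM (SD, n = 3 each), and an exact two-sided permutation test gave p = 0.2, where 3 mice against 3 cannot go below 0.1. The difference in means was 0.33% of the rise seen in the moderate model. The choice of genes fixed that rise to be large, so this share does not measure leak. None of the 315 passed the test, and 64 had no count in any of the 6 mice. Of the others, 126 had a log2 fold change above 0 and 125 below 0. A gene raised in FLExD/+ mice also raises the average used for the choice and can miss it. The sum, its permutation test and the split of signs therefore cannot decide whether the allele leaks.

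Among the 315, 13 genes (4.13%, against 1.61% of all tested genes) had an unadjusted p under 0.05 and were higher in FLExD/+ mice, and 6 (1.9%, against 2.22%) were lower. Groups did not overlap for 16 higher (5.08%, against 4.01%) and 5 lower (1.59%, against 4.59%). Members could enter the tested set through their counts in the DUX4 models alone, as the 64 without a count did. These shares are therefore no measure of leak. Those with the smallest p rested on few reads, as in 9130014G24Rik, an uncharacterised gene with no counts in the ACTA1-MCM/+ mice and 0.0984, 0.0991 and 0.241 CPM in the FLExD/+ mice. Rims1, a synaptic active zone gene, was at 0, 0.0482 and 0.142 CPM against 0.246, 0.347 and 0.338 CPM, against a moderate range of 2.45 to 3.28 CPM. The 5 readout genes most abundant in the moderate model overlapped between the groups. They were Prune2, the embryonic myosin gene Myh3, the membrane protein gene Mfap3l, the perinatal myosin gene Myh8 and Ankrd1, which codes for a stretch-responsive ankyrin repeat protein. Myh8 was at 6.32, 7.52 and 5.40 CPM against 6.99, 9.57 and 9.69 CPM, and its moderate range was 131 to 211 CPM. Casr, a gene outside the 315 that was picked after its values were seen, had groups that did not overlap. It was at 7.31, 9.68 and 4.74 CPM against 12.8, 14.5 and 17.5 CPM, with a moderate range of 107 to 132 CPM. Its log2 fold change was 1.05 (SE 0.30), and it did not pass the adjusted test.

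**Figure D4:**
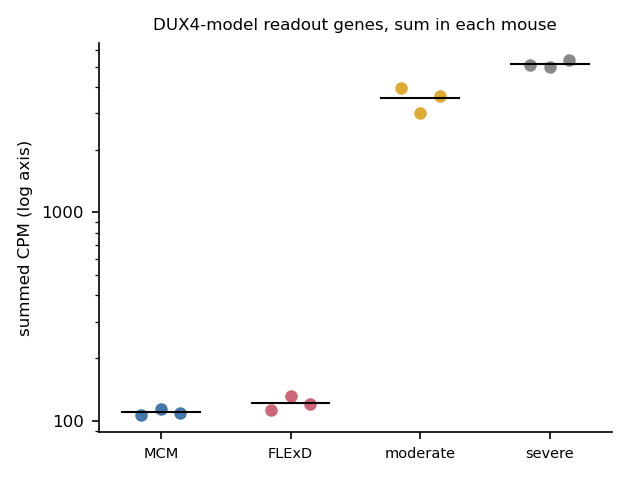
Summed CPM, on a log axis, of 315 genes chosen for being at least 4 log2 units higher in the moderate model, in each of the 12 mice, with points for mice and bars for group means. The 6 single-transgenic mice lie between 107 and 132 and the moderate and severe mice above 2900, a separation that the choice of genes fixes.

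The genes that ranked highest after Esr1 did not pass the adjusted test, and the values of those higher in FLExD/+ mice follow. Chac1, which degrades glutathione and is a target of the ATF4 stress response, was at 12.3, 11.8 and 5.45 CPM in ACTA1-MCM/+ and 18.4, 19.2 and 19.96 CPM in FLExD/+ mice. The groups did not overlap, and the log2 fold change was 0.97 (SE 0.22, adjusted p = 1 by edgeR). In the DUX4 models it lay the other way, with means of 1.51 CPM (moderate) and 0.482 CPM (severe). Gm20390, a readthrough gene model that shares its strand and sequence with Nme1 and Nme2, was at 1.71, 2.84 and 3.32 CPM against 7.13, 7.63 and 8.73 CPM, a log2 fold change of 1.57 (SE 0.36, adjusted p = 1 by edgeR and 0.0215 by DESeq2). Its reads can be split with the nucleoside diphosphate kinase genes Nme1 and Nme2, whose log2 fold changes were -0.08 and 0.13 with overlapping groups.

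Cish, a feedback inhibitor of STAT5 signaling by growth hormone and cytokines, was at 2.54, 0.771 and 0.332 CPM against 4.53, 5.50 and 4.24 CPM. The ACTA1-MCM/+ mice spread widely, and without mouse 1127 the log2 fold change moved from 1.99 to 3.10 and the adjusted p by edgeR to 0.00175. Its relative Socs2 was at 17.5, 9.35 and 6.92 CPM against 36.4, 17.4 and 15.9 CPM, where FLExD/+ mice 1367 and 1378 fell within the ACTA1-MCM/+ range; it was picked after its values were seen. H2-Q10, a class I histocompatibility gene of a family with similar sequences, was at 1.04 to 1.59 CPM against 1.93 to 3.52 CPM. The other genes of the 10 that were higher were 5730528L13Rik, Grrp1, the transcription elongation factor gene Paf1 and the flap endonuclease gene Fen1, with log2 fold changes of 0.52, 0.83, 0.31 and 0.55.

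Of the 10 genes that ranked highest on the lower side, Esr1 came first and the others had an adjusted p of 1 by edgeR. The processed pseudogene Gm12537 was at 3.99, 2.31 and 1.80 CPM against 0.885, 0.942 and 0.675 CPM, a log2 fold change of -1.69 (SE 0.34). Sytl2, which acts in the docking of secretory vesicles, was at 8.13, 6.07 and 10.2 CPM against 4.38, 3.62 and 4.29 CPM, a log2 fold change of -0.99 (SE 0.21), and was at a mean of 40.6 CPM in the severe model. Nfatc1, a calcineurin-regulated transcription factor of muscle, was at 26.8 to 28.3 CPM against 21.2 to 21.5 CPM, a small difference with little spread within the groups. Nfix, which drives the fetal program of myoblasts, was at 50.1 to 57.3 CPM against 38.0 to 46.7 CPM. Tnxb, the gene of the matrix protein tenascin X, was at 125 to 150 CPM against 78.0 to 110 CPM. The sarcomere-associated Synpo2l and the genes Irf2bpl, C78339 and the mitochondrial carrier Slc25a27 had log2 fold changes of -0.32, -0.58, -0.37 and -0.54.

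Lists of genes for stress, death and repair were counted in the same fit. The share of all tested genes with an unadjusted p under 0.05 was 3.83%. Of 18 ATF4 and stress genes tested, none passed and 1, Chac1, had such a p, with a list median log2 fold change of -0.02 beside a median of 0.00 over all genes. Atf4 itself was at 104 to 123 CPM against 108 to 119 CPM, and the chaperone-stress factor Ddit3 at 6.92 to 12.3 CPM against 8.97 to 12.2 CPM. Of 10 p53 targets, none passed, none had an unadjusted p under 0.05 and none had groups that did not overlap. The cell cycle inhibitor Cdkn1a was at 0.915 to 2.59 CPM against 1.23 to 1.44 CPM, where the severe model averaged 13.9 CPM. Of 13 regeneration genes, none passed and 1, Myh8, had an unadjusted p under 0.05. Myog, the factor that drives myoblast differentiation, was at 2.69 to 3.84 CPM against 2.36 to 3.94 CPM. Of 11 leukocyte and macrophage genes tested, none passed and none had an unadjusted p under 0.05. The macrophage gene Cd68 was at 1.45 to 2.26 CPM against 1.97 to 2.78 CPM, where the moderate model averaged 34.3 CPM.

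The erythroid genes were lower in FLExD/+ mice in every case without passing the test. All 5 tested, the alpha globins Hba-a1 and Hba-a2, the beta globins Hbb-bs and Hbb-bt and the heme synthesis gene Alas2, had groups that did not overlap and were lower in FLExD/+ mice, against 4.59% of all tested genes. None passed the adjusted test, and Alas2 alone had an unadjusted p under 0.05. Alas2 was at 7.67, 5.97 and 7.16 CPM against 4.38, 4.51 and 4.002 CPM, a log2 fold change of -0.69 (SE 0.23, adjusted p = 1 by edgeR). The summed level of the list was 386 to 463 CPM against 316 to 337 CPM. Globin genes share reads with their near copies, and they are transcripts of blood cells held in the tissue, so the members are not independent. Fewer cells of a type and less RNA per cell cannot be told apart in these bulk samples.

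Fiber type genes varied widely between mice of the same genotype. The 10 slow-fiber genes, of the slow sarcomere and its calcium pump, had the same 3 mice highest in every case, ACTA1-MCM/+ mouse 1246 and FLExD/+ mice 1358 and 1367. Myh7, the slow myosin heavy chain, was at 501, 1034 and 170 CPM against 1083, 938 and 256 CPM. For the list, the highest mouse was a median of 6.16-fold above the lowest, where the median over the 6964 genes at 10 CPM or more was 1.24-fold. All 10 had a log2 fold change above 0 (median 0.58), but none had an unadjusted p under 0.05, and the groups overlapped for each. Of the 12 fast-fiber genes, 8 had the other 3 mice highest. Myh4 was at 86693, 58766 and 92481 CPM against 58682, 51731 and 78688 CPM. Myh2, the fast myosin of type IIA fibers, went with the slow genes, at 1425, 3909 and 1472 CPM against 4214, 4683 and 1890 CPM. In a principal component analysis of the 6 mice, component 1 held 49.1% of the variance and placed mice 1246, 1358 and 1367 on one side and mice 1127, 1349 and 1378 on the other.

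**Figure D5:**
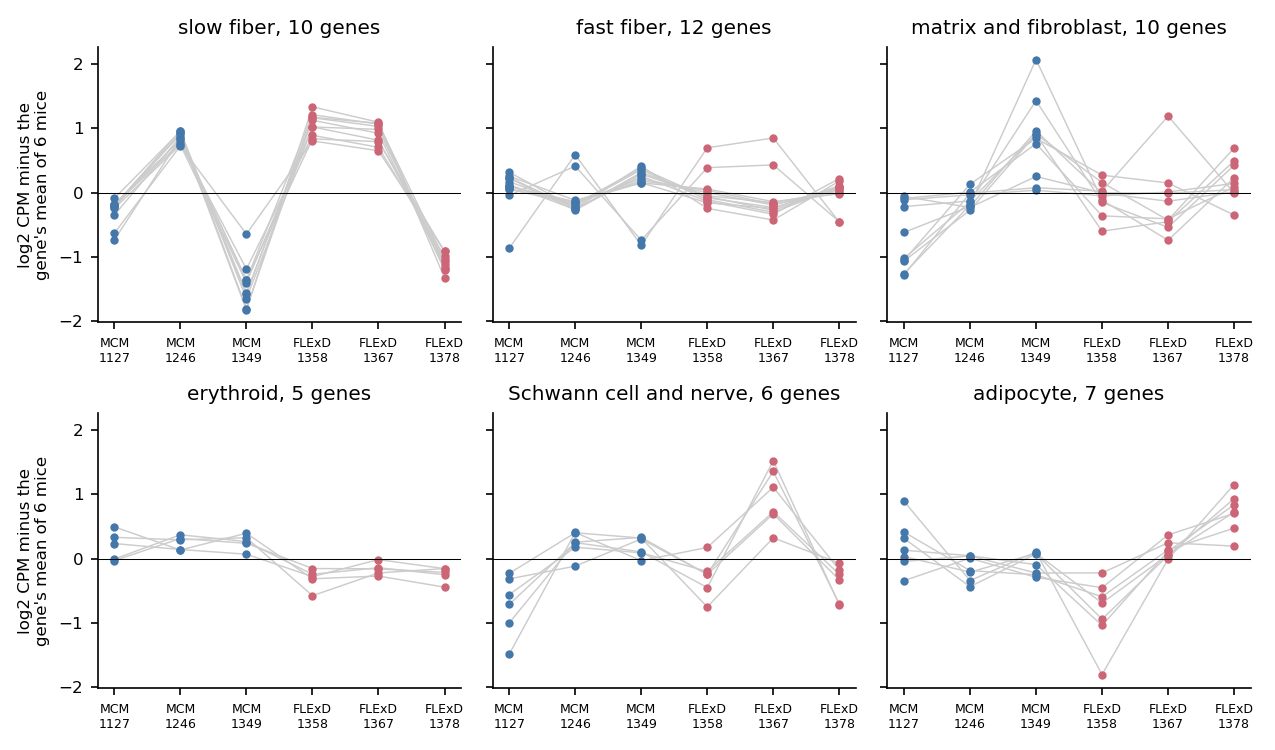
Log2 CPM of each gene minus its mean over the 6 single-transgenic mice, for 6 gene lists, with each gene a line and mice along the horizontal axis. Slow-fiber genes are high in MCM 1246, FLExD 1358 and FLExD 1367, matrix genes peak in MCM 1349, and erythroid genes are lower in the 3 FLExD mice.

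Other mouse-to-mouse differences also crossed the genotypes. Nnt, a mitochondrial transhydrogenase gene that is partly deleted in C57BL/6J mice, was at 29.7, 146 and 25.2 CPM in ACTA1-MCM/+ and 143, 144 and 72.3 CPM in FLExD/+ mice. Its 3 highest mice were the 3 with the highest slow-fiber genes, and the part of strain background or fiber type in its level was not tested. Of 10 matrix and fibroblast genes, none passed. Col1a1, the chain of type I collagen, was at 54.6, 114 and 549 CPM against 120, 78.2 and 153 CPM, with ACTA1-MCM/+ mouse 1349 far above the rest. Mbp, a myelin gene, was at 8.29, 16.1 and 14.6 CPM against 9.94, 39.0 and 8.25 CPM, with FLExD/+ mouse 1367 highest. Adipoq, the adipocyte hormone, was at 22.5, 19.0 and 23.3 CPM against 13.6, 23.0 and 36.3 CPM, lowest in FLExD/+ mouse 1358 and highest in mouse 1378. None of the 6 Schwann cell, 7 adipocyte, 6 tendon or 6 endothelial genes passed the test or had groups that did not overlap.

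Genes of the clock varied between mice of both genotypes. The activator Arntl was at 17.0, 5.44 and 27.4 CPM in ACTA1-MCM/+ and 21.5, 13.4 and 8.53 CPM in FLExD/+ mice. The repressor Per2 ran the opposite way, at 9.01, 22.5 and 3.70 CPM against 7.23, 10.8 and 16.6 CPM. Of the 14 clock genes, none passed and 1, Bhlhe41, had an unadjusted p under 0.05, against 3.83% of all tested genes (log2 fold change -0.27). Of 11 genes of fasting and fuel use, none passed and 1, the carnitine palmitoyltransferase gene Cpt1a, had groups that did not overlap, at 6.01 to 7.71 CPM against 5.46 to 5.98 CPM, where 8.6% of all tested genes did not overlap. Of 9 immediate early genes, none passed and 1, Egr1, had groups that did not overlap, at 2.28 to 2.84 CPM against 0.820 to 1.78 CPM, beside the same 8.6%. Of the 7 tested genes of the estrogen receptor list, only Esr1 passed. Esr2 was at 0.518 to 0.626 CPM against 0.295 to 0.496 CPM, without overlap but with an unadjusted p of 0.20, and Greb1, an estrogen-induced gene, was at 0.144 to 0.518 CPM against 0.193 to 0.492 CPM.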

How the data were processed

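RNA-seq libraries of gastrocnemius muscle, 1 per mouse, were single-end with reads of 50 bases, from poly(A) RNA. The authors mapped reads with RSEM 1.2.4, modified to call Bowtie, to a merged mouse annotation of mm10 (GRCm38), with TopHat2 2.0.8b for the remaining reads. They deposited expected counts of 37748 genes without normalization. The authors also deposited TPM, which served for implied lengths and an alternative. No filter on strand is stated.

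Expected counts were rounded and tested with edgeR 4.0.16 in R 4.3.3 (filterByExpr, TMM, robust quasi-likelihood F-test) with all 4 groups fitted together, and p-values were adjusted by Benjamini-Hochberg over 16679 genes. Calls needed an adjusted p below 0.05 and a log2 difference of 0.5 or more in either direction. Standard errors and 95% intervals came from the F statistic. The floor is 3 counts per library. Scripts were tested on simulated data. Depth is given with the results, and the 95% intervals include the spread between mice that the fit estimated.

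Groups followed the genotype labels. Named genes were all called genes, the 10 higher and 10 lower with the smallest p, no overlap and 50 or more counts on average in the group that was higher, 5 genes that the study discusses or that mark the transgenes, the gene lists, and the 5 readout genes most abundant in the moderate model. The comparison, its members and the lists were chosen with earlier results of these data known. Positions and sequences were taken from GENCODE M21 (GRCm38), where 95.3% of the identifiers were found. The alternatives were other scalings, DESeq2 1.42.0, limma 3.58.1 on log2(TPM + 1), other filters, thresholds and samples, an approximation of the study's Bayes factor rule, and the omission of each mouse. A covariate for slow-fiber genes, in a fit of the 6 mice alone, was added after seeing the data. Figures were drawn with matplotlib 3.10.9.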

Additional observations from a re-analysis of the deposited data

How the results depend on the processing

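Esr1 stayed lower in FLExD/+ mice under all 17 alternatives tried for it, with log2 fold changes from -5.80 to -4.15. It passed in all but the fit of these 6 mice alone without a covariate, where the adjusted p was 0.0504 at -4.36 and 0 genes were called by edgeR, with 517 at an unadjusted p under 0.05. DESeq2 called 3 genes (Esr1, Gt(ROSA)26Sor at 0.89 and Gm20390), limma on log2(TPM + 1) called 2 (Esr1 and Cish), the approximation of the study's rule 2 (Esr1 and Wdfy1), and a fit of the 6 mice alone with a slow-fiber covariate, chosen after seeing the data, 2 (Esr1, adjusted p = 9.22e-05, and Wdfy1, adjusted p = 0.00692, by edgeR). That fit changed both the samples and the covariate, and Wdfy1 had an adjusted p of 0.0525 by edgeR in the 6 mice without the covariate. The study itself reported 3 genes for this comparison, 2 upregulated and 1 downregulated. The approximation of its rule gave 2 and so does not stand in for the study's own calls. Leaving out 1 mouse gave 1 to 2 calls, the 2 being Esr1 and Cish without ACTA1-MCM/+ mouse 1127. Gt(ROSA)26Sor stayed higher throughout, from 0.72 to 0.99, with adjusted p values from 0.00913 to 0.893. The readout sum had a log2 difference of 0.14, of 0.020 with genes chosen at a log2 fold of 2 and of 0.27 at 6, and of 0.08 to 0.19 with 1 mouse left out. Wdfy1 reversed to -0.22 in limma on log2(TPM + 1), where the longer implied length divides its counts. Wfdc3 reversed to 0.50 without ACTA1-MCM/+ mouse 1246 and to 0.35 without FLExD/+ mouse 1367, on 1 to 8 counts a mouse, and its lowest value with 1 mouse left out was -0.88. The cause of the other shifts, and of the lost Esr1 call, was not tested. No paired analysis was possible because the replicate numbers are mouse identities and no number is shared between the groups.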
